A study of Mus musculus with 9 samples.

Results

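Thap12, Ptges3, Slc39a9, Minar2 and Tmem117 are 5 protein-coding genes whose RNA stood well above the scrambled control in each of 2 knockdowns made in the embryonic mouse cortex. They are 5 of the 53379 gene identifiers in the count table, and all 5 were among the 17760 genes with enough counts to be tested. They were chosen by their fold change over scramble, a strong rise in both knockdowns, so their levels against scramble are given as a description, with no test. The contrast between the knockdowns was not itself used to pick them, and it was tested. Its libraries did enter the choice, and asking for a rise in both can favour genes whose knockdown levels are alike.

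A first group of embryos was given a mix of 3 short hairpin RNAs (shRNAs) directed at circSlc45a4, a circular RNA made from the gene Slc45a4 (circSlc45a4 knockdown cells). Another was given a mix of 2 that target its linear messenger RNA (mRNA knockdown cells), and the control group was given 1 scrambled sequence (scramble). All 3 groups were C57BL/6 embryos electroporated in utero at E13.5 and taken 48 h later, at E15.5. GFP+ cells of the cortex were sorted, their RNA was selected for polyA tails, and each group held 3 biological replicates. Electroporation reaches a part of the cells of the cortex, and the sort keeps those that carry the label, so each library mixes progenitors and the neurons born from them. All groups carried an shRNA and GFP, and no library without an shRNA was used here.

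The 5 genes are not textbook members of a common pathway. Thap12 encodes a protein with a THAP zinc finger, a DNA-binding fold; the human protein was described as a regulator of the inhibitor of PKR, the kinase that halts translation when it senses double-stranded RNA. Ptges3 encodes p23, a co-chaperone that binds HSP90 in its closed state together with client proteins, and it is also known as cytosolic prostaglandin E synthase. Slc39a9 encodes ZIP9, a transporter that brings zinc into the cytosol. Minar2 encodes a membrane protein related to Minar1, which in human cells binds the receptor NOTCH2. Tmem117 encodes a protein with several membrane spans that has been linked to endoplasmic reticulum stress in human cells.

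The promoters of 4 of the 5 genes were in the RefSeq table for GRCm38.p6, and they are shown because the genes moved together against scramble. Each window runs 300 bases on the plus strand, from 250 bases before a RefSeq transcription start to 50 after it. That start is not the first base of the gene in GENCODE, given with each gene further on, and the Slc39a9 window lies wholly inside the GENCODE gene. Capitals mark matches on either strand to 9 short motifs: CCAAT (the box bound by NF-Y), TATAAA (the TATA box), GGGCGG (the GC box), CACGTG (the E box), GAANNTTC (a heat shock element core), TGCNCNC (a looser form of the metal response element core, so a match need not be that core), TGANTCA (the AP-1 site), CGGAAG (an ETS core) and the palindrome bound by NRF1.
Thap12, chr7:98702997-98703296: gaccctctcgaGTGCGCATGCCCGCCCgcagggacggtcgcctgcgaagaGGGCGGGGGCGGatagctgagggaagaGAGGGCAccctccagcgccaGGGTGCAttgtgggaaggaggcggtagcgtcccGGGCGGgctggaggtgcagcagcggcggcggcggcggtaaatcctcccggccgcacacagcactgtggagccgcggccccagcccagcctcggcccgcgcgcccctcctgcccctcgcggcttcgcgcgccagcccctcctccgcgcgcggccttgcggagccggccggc
Ptges3, chr10:128058732-128059031: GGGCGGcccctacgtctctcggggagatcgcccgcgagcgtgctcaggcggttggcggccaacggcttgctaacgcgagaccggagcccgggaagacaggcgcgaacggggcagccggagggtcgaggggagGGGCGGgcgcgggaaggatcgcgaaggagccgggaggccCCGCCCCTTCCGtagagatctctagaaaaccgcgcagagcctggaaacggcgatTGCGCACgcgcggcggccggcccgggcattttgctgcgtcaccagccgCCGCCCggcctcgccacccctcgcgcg
Slc39a9, chr12:80643965-80644264: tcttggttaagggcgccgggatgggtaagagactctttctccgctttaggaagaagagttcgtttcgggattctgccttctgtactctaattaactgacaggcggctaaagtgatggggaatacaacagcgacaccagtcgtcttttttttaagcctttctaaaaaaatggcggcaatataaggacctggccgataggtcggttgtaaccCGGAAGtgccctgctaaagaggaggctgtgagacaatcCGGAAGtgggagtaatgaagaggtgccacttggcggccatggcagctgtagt
Tmem117, chr15:94628935-94629234: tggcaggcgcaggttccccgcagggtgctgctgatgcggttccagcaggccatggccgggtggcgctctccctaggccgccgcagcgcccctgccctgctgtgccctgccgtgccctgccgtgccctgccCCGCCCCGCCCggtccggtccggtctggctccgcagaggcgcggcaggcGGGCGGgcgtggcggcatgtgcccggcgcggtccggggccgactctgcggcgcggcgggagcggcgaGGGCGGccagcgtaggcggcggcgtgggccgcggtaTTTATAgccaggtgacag

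The windows of Thap12, Ptges3 and Tmem117 were rich in G and C, at 76.7%, 73.7% and 78.0%, against a median of 52.7% over 32851 promoters. The window of Slc39a9 stood at 49.7%. The GC box matched 4 times in each of the 3 GC-rich windows and not in that of Slc39a9, and 35.7% of all promoters held it. TGCNCNC matched 4 times in Thap12 and 1 time in Ptges3, against 51.0% of all promoters. CGGAAG matched 2 times in Slc39a9 and 1 time in Ptges3, against 16.9% of all promoters, and TATAAA matched 1 time in Tmem117, on the minus strand, against 13.6%. In Thap12, 1 GC box match shared bases with 1 TGCNCNC match. None of the 9 motifs was in all 4 windows. A match describes the letters and does not show a bound site.

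Total counts were 36883510 to 45469298 in circSlc45a4 knockdown cells, 35307378 to 37051161 in mRNA knockdown cells and 21073174 to 31833779 in scramble, so every scramble library was shallower than every knockdown library. Values below are counts relative to a library's total (CPM) after scaling by trimmed mean of M-values (TMM), and the part of depth in the differences was not tested. Slc45a4, the targeted gene, stood at 25.4, 25.3 and 24.7 CPM in circSlc45a4 knockdown cells and at 13.3, 18.5 and 17.4 CPM in mRNA knockdown cells, against 31.4, 33.6 and 34.0 CPM in scramble. In edgeR's quasi-likelihood test with Benjamini-Hochberg adjustment it fell by 0.39 ± 0.12 on the log2 scale (SE, adjusted p = 0.0245) and by 1.01 ± 0.12 (adjusted p = 1.08e-04). A circular RNA has no polyA tail, so circSlc45a4 itself was not read. The sex of the embryos differed between libraries. Xist, a noncoding RNA made in female cells, was at 635, 264 and 428 CPM in circSlc45a4 knockdown cells and at 1550, 637 and 0.194 CPM in mRNA knockdown cells, against 0.0618 to 0.239 CPM in scramble. Ddx3y, a Y-linked gene, had 0 counts in replicate 1 of mRNA knockdown cells and 20.0 to 41.6 CPM in the other 8 libraries. That replicate also differed most from the others of its group in a count comparison over genes.

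Markers of neurons and of radial glia, the progenitors of the cortex, were present in every library. For 6 markers of newborn and projection neurons, the sum was 4349 to 4454 CPM in circSlc45a4 knockdown cells. It was 4016 to 4399 CPM in mRNA knockdown cells, against 4944 to 5840 CPM in scramble, below scramble in all 6 knockdown libraries. Of the 6, 2 were called lower in circSlc45a4 knockdown cells (Dcx and Stmn2) and 3 in mRNA knockdown cells (Dcx, Stmn2 and Tubb3). Neurod2 (-0.04 and 0.0025) and Neurod6 (0.02 and 0.01) stayed near scramble. Tbr1 (0.43 and -0.09) was not called in either knockdown. The sum of 7 radial glia markers was 1316 to 1442 CPM in circSlc45a4 knockdown cells and 833 to 1068 CPM in mRNA knockdown cells, against 771 to 1022 CPM in scramble, with 5 of the 7 called higher in circSlc45a4 knockdown cells and 2 in mRNA knockdown cells. The sum of 3 markers of basal progenitors was 653 to 837 CPM in circSlc45a4 knockdown cells and 831 to 849 CPM in mRNA knockdown cells, against 837 to 946 CPM in scramble. Of these, Eomes was called lower in circSlc45a4 knockdown cells (-0.43) and Btg2 in mRNA knockdown cells (-0.80). Markers of ventral interneurons were low, at 1.53 to 2.68 CPM in circSlc45a4 knockdown cells and 3.05 to 4.74 CPM in mRNA knockdown cells, against 3.06 to 6.92 CPM in scramble, and 3 of 5 tested were called lower in circSlc45a4 knockdown cells. Oligodendrocyte precursor markers summed to 1.19 to 1.90 CPM in circSlc45a4 knockdown cells and 0.593 to 1.73 CPM in mRNA knockdown cells. In scramble they summed to 0.292 to 0.587 CPM. Of these 4 markers only Olig2 had enough counts to be tested, and it was called higher in both (2.64 and 1.95). Its scramble values rest on 4, 7 and 8 reads. Pericyte markers summed to 3.58 to 5.01 and 1.56 to 2.69 CPM in circSlc45a4 and mRNA knockdown cells, against 1.65 to 3.97 CPM in scramble. Pdgfrb was called higher in circSlc45a4 knockdown cells (1.39). Rgs5, the other pericyte marker tested, went the other way (-1.35 and -1.36) and was not called in either knockdown. Erythroid markers reached at most 13.3 CPM and meningeal markers at most 1.63 CPM in any library. Microglial markers summed to 4.32 to 7.27 CPM in circSlc45a4 knockdown cells and 2.29 to 4.56 CPM in mRNA knockdown cells, against 1.39 to 3.63 CPM in scramble, with 1 of 4 tested called higher in circSlc45a4 knockdown cells. Endothelial markers reached at most 3.03 CPM and choroid plexus markers at most 0.803 CPM in any library, and no marker was at 0 in all 9. The part of these marker differences in the levels of the 5 genes was not tested. In sorted bulk cells, fewer cells of a type and less RNA per cell cannot be told apart.

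Thap12 (ENSMUSG00000030753.15, chr7:98703103-98718062, plus strand, mm10) stood at 97.1, 97.7 and 105.8 CPM in replicates 1 to 3 of circSlc45a4 knockdown cells and at 107.9, 94.4 and 95.3 CPM in mRNA knockdown cells, against 33.3, 31.9 and 37.7 CPM in scramble. The knockdowns overlapped each other and lay far above scramble. The log2 fold change over scramble was 1.55 ± 0.09 (SE, n = 3 each) in circSlc45a4 knockdown cells and 1.53 ± 0.09 in mRNA knockdown cells. Its spread within groups was small, with a coefficient of variation of 4.87% and 7.60% in the knockdowns and 8.81% in scramble.

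Ptges3 (ENSMUSG00000071072.12, chr10:128058954-128077272, plus strand) read 92.5, 111.4 and 108.8 CPM in circSlc45a4 knockdown cells and 126.5, 104.3 and 103.7 CPM in mRNA knockdown cells, against 34.4, 33.8 and 39.2 CPM in scramble. Again the knockdowns overlapped, and the lowest knockdown library lay well above the highest scramble library. The log2 fold change was 1.54 ± 0.11 in circSlc45a4 knockdown cells and 1.64 ± 0.11 in mRNA knockdown cells. The counts of Ptges3 are uncertain, because 434 of the 2215 windows of 50 bases in its annotated transcripts (19.6%) also occur in other genes, the processed pseudogenes Ptges3-ps and Gm11893. Ptges3-ps read 38.8, 43.1 and 38.1 CPM in circSlc45a4 knockdown cells and 41.5, 39.2 and 36.9 CPM in mRNA knockdown cells, against 9.99, 12.9 and 13.1 CPM in scramble. Summed with both pseudogenes, a sum added after the data were seen, Ptges3 had log2 fold changes of 1.60 in circSlc45a4 knockdown cells and 1.67 in mRNA knockdown cells. How reads were shared among these copies is not given in the sources used here.

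Slc39a9 (ENSMUSG00000048833.9, chr12:80643883-80683342, plus strand) was at 65.8, 64.3 and 72.8 CPM in circSlc45a4 knockdown cells and at 59.6, 61.6 and 65.8 CPM in mRNA knockdown cells, against 25.2, 26.6 and 26.4 CPM in scramble. The knockdowns overlapped each other and not scramble. The log2 fold change was 1.38 ± 0.08 in circSlc45a4 knockdown cells and 1.26 ± 0.08 in mRNA knockdown cells, the smallest of the 5 genes in each. Scramble varied least for this gene, with a coefficient of variation of 2.87%. None of its windows of 50 bases occurs in another gene.

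Minar2 (ENSMUSG00000050875.11, chr18:59062248-59076962, plus strand) was read at a lower level, 20.9, 25.0 and 22.7 CPM in circSlc45a4 knockdown cells and 23.2, 20.4 and 20.2 CPM in mRNA knockdown cells, against 6.65, 6.25 and 5.31 CPM in scramble. Every knockdown library exceeded every scramble library. The log2 fold change was 1.92 ± 0.13 in circSlc45a4 knockdown cells and 1.81 ± 0.13 in mRNA knockdown cells. It was the largest of the 4 genes whose knockdown levels overlapped.

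Tmem117 (ENSMUSG00000063296.4, chr15:94629232-95096098, plus strand) had another pattern, with 4.63, 5.58 and 4.94 CPM in circSlc45a4 knockdown cells and 1.42, 1.21 and 0.637 CPM in mRNA knockdown cells, against 0.0478, 0.357 and 0.309 CPM in scramble. The 3 groups did not overlap. The scramble values rest on 1, 11 and 10 reads, against 207, 204 and 221 reads in circSlc45a4 knockdown cells and 51, 45 and 23 reads in mRNA knockdown cells. The single read of scramble replicate 1 has an exact 95% Poisson interval of 0.00121 to 0.266 CPM. From summed counts, the level in circSlc45a4 knockdown cells was 19.2 times that in scramble (95% interval 12.6 to 30.8) and the level in mRNA knockdown cells was 4.18 times that in scramble (2.63 to 6.91). These intervals cover counting error only. The fitted log2 fold changes were 4.29 ± 0.43 and 2.08 ± 0.45 in circSlc45a4 and mRNA knockdown cells.

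**Figure D1:**
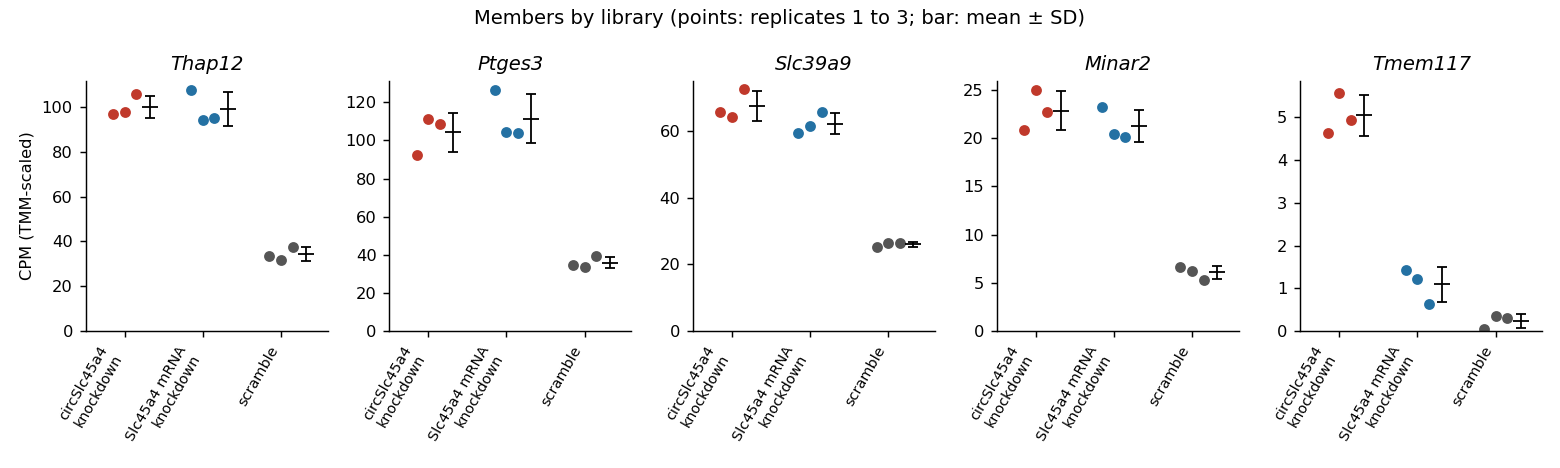
CPM (TMM-scaled, vertical axis, from 0 and set separately for each gene) of the 5 genes in the 9 libraries; points are replicates 1 to 3 from left to right within a group, and the bar beside them is the mean with its SD. For Thap12, Ptges3, Slc39a9 and Minar2 both knockdowns sit together above scramble, while Tmem117 averages 5.05 CPM in circSlc45a4 knockdown cells and 1.09 CPM in mRNA knockdown cells, against 0.238 CPM in scramble.

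Levels can be ranked between genes only per length, so counts were also expressed as length-scaled values (TPM) from the exon length of the annotation. Ptges3 was the highest at 116.6 ± 9.80 TPM in circSlc45a4 knockdown cells and 120.5 ± 10.8 TPM in mRNA knockdown cells, against 40.2 ± 3.79 TPM in scramble (SD, n = 3 each). Thap12 followed at 60.3 ± 4.12 TPM in circSlc45a4 knockdown cells and 57.7 ± 3.11 TPM in mRNA knockdown cells, against 20.7 ± 2.02 TPM in scramble. The order went on with Slc39a9, Minar2 and Tmem117, at means of 16.6, 10.6 and 2.56 TPM in circSlc45a4 knockdown cells and 14.8, 9.53 and 0.531 TPM in mRNA knockdown cells, against 6.39, 2.82 and 0.122 TPM in scramble. No neighbours in this order overlapped within any group. In scramble, Ptges3 stood at the 78.0th percentile of all tested genes by TPM and Tmem117 at the 1.6th.

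In all, 879 of the 17760 genes tested (4.95%) were called higher in both knockdowns, with an adjusted p under 0.05 in each, and 612 (3.45%) were called lower in both. The 5 genes are among the 879 by choice. Both comparisons use the same 3 scramble libraries, so a chance deviation in scramble enters both. Against scramble, 14.1% of genes were called higher and 13.0% lower in circSlc45a4 knockdown cells, 8.92% higher and 9.09% lower in mRNA knockdown cells, and the median log2 fold change of all genes was -0.01 and 0.01. With upper-quartile factors 42.3% of the calls in circSlc45a4 knockdown cells were higher, in place of 52.1%. The count of 879 was 547 without scramble replicate 2 and 243 with Xist, which largely followed group, as a covariate. Ordered by the smaller of the fold changes, Tmem117 was at position 28 of the 879, Minar2 at 35, Ptges3 at 43, Thap12 at 44 and Slc39a9 at 72. All 6 knockdown libraries exceeded all 3 scramble libraries for each of the 5, as they did for 9.1% of genes tested.

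Other genes stood as high or higher by the same measure. Of the 879, 743 were protein-coding genes with a mean log2 CPM of at least 1 and no overlap between knockdown and scramble libraries, predicted models left out. The 6 with the largest smaller fold change were taken from these 743, where Tmem117 was at position 4, so noncoding genes such as Xist and weakly read genes above them are not listed. Igsf11, an adhesion protein of the immunoglobulin family, read 11.2, 13.2 and 14.3 CPM in circSlc45a4 knockdown cells and 15.49, 9.17 and 11.9 CPM in mRNA knockdown cells, against 1.91, 2.46 and 1.79 CPM in scramble. Ldha, the lactate dehydrogenase subunit that forms lactate, read 223 to 282 CPM in circSlc45a4 knockdown cells and 169 to 241 CPM in mRNA knockdown cells, against 32.6 to 50.8 CPM in scramble. The next among the 743 were BC024139, with log2 fold changes of 3.64 in circSlc45a4 knockdown cells and 2.16 in mRNA knockdown cells, Idi1 of isoprenoid and cholesterol synthesis (1.81 and 1.71), Slc26a7, an anion transporter (3.78 and 1.70), and Pcp4, a calmodulin-binding protein (2.14 and 1.66).

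The reading that the scrambled shRNA lowered these genes rests on the same 3 group means. A rise in both knockdowns and a fall in scramble would each leave the knockdowns together and scramble apart. Since 1 scrambled sequence was the only control and no library without an shRNA was used here, they cannot be told apart. What can be measured is how close the knockdowns, which used different shRNAs, stood to each other, in a contrast without scramble levels. Scaling and the estimate of spread used all 9 libraries, so scramble enters the SE, interval and adjusted p of that contrast.

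For 4 of the 5 genes the difference between the knockdowns was small and did not pass the test. The log2 difference, circSlc45a4 over mRNA knockdown cells, was 0.01 ± 0.09 for Thap12 (SE, 95% interval -0.17 to 0.20, adjusted p = 0.926 in edgeR's quasi-likelihood test), a ratio of 0.888 to 1.15. It was -0.10 ± 0.10 for Ptges3 (interval -0.32 to 0.12, adjusted p = 0.534 in edgeR), 0.12 ± 0.08 for Slc39a9 (-0.06 to 0.29, adjusted p = 0.322) and 0.10 ± 0.12 for Minar2 (-0.15 to 0.36, adjusted p = 0.574). These intervals bound the difference and do not show that the knockdowns acted alike. The sign for Thap12 changed under other settings, and its size lies within its error.

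Tmem117 was 4.61 times as high in circSlc45a4 knockdown cells as in mRNA knockdown cells (95% interval 2.71 to 7.85), a log2 difference of 2.21 ± 0.36 (adjusted p = 6.61e-04 in edgeR's quasi-likelihood test). All 3 circSlc45a4 knockdown libraries exceeded all 3 mRNA knockdown libraries. Called in this contrast were 26.1% of all genes tested (13.8% higher and 12.3% lower in circSlc45a4 knockdown cells) and 197 of the 879 genes higher in both, so 1 of 5 is close to the background. With upper-quartile factors 42.1% of the calls were higher, in place of 52.8%. The median absolute log2 difference was 0.26 over all genes and 0.16 over the 879. The Tmem117 call held in all 17 alternative fits, with log2 differences of 1.94 to 2.44 and adjusted p from 3.35e-11 to 0.00469.

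**Figure D2:**
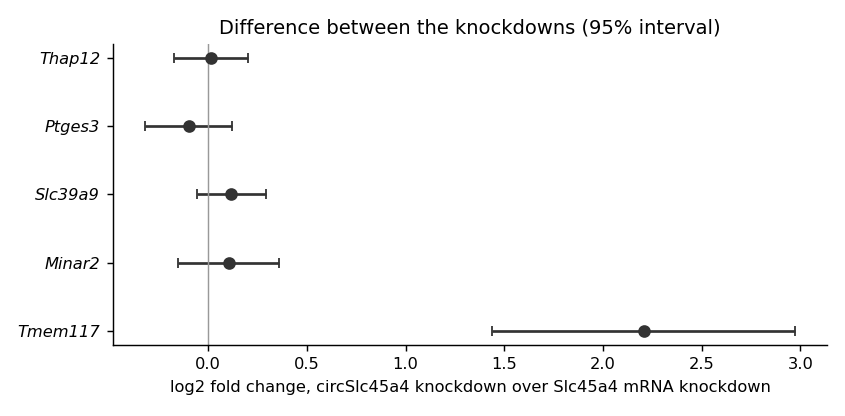
Log2 difference between the knockdowns (horizontal axis, circSlc45a4 knockdown over Slc45a4 mRNA knockdown) for the 5 genes; points are fitted values and bars are 95% intervals. The intervals of Thap12, Ptges3, Slc39a9 and Minar2 span 0, and that of Tmem117 runs from 1.44 to 2.97.

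Xist separated most knockdown libraries from scramble as the 5 genes did, so replicate 3 of mRNA knockdown cells, where Xist was at the level of scramble, was set against scramble alone. This comparison was added after the data were seen. The log2 fold change in that library was 1.48 for Thap12, 1.54 for Ptges3, 1.34 for Slc39a9, 1.74 for Minar2 and 1.31 for Tmem117. With Xist as a covariate it was 1.46 for Thap12, 1.41 for Ptges3, 1.50 for Slc39a9, 1.80 for Minar2 and 3.40 for Tmem117 in circSlc45a4 knockdown cells. In mRNA knockdown cells the same fit gave 1.46, 1.53, 1.35, 1.72 and 1.33 for these genes in that order. All 5 genes stayed above scramble in these fits. The same libraries served to choose them for a rise over scramble, so this largely follows from that choice. Xist was low in scramble and high in every knockdown library but replicate 3 of mRNA knockdown cells, so this covariate largely follows group. Calls lost with it can reflect a wider error as well as a smaller effect, and the part of sex was not tested.

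Over the 9 libraries, the log2 CPM of Thap12, Ptges3, Slc39a9 and Minar2 followed each other closely, with Pearson's r of 0.973 to 0.994 between pairs, and r of 0.803 to 0.847 between Tmem117 and each of them. The libraries form 3 groups, so these are not values over 9 independent conditions. The genes were chosen for a rise over scramble in both knockdowns, so a high r between them largely follows from that choice. The genes listed next were ranked over the same libraries, so they mainly share the pattern used for the choice. A link between any of these genes was not tested. Among 11013 protein-coding genes, the pattern most like Thap12 was that of Dhx15, an RNA helicase of splicing (r = 0.998), then Sept11 (0.995) and Ptges3 (0.994). Closest to Ptges3 were Hs2st1, a heparan sulfate sulfotransferase (0.995), Thap12 (0.994) and Erh (0.993). For Slc39a9 they were Phf20 (0.995), Brd3 (0.992) and Max, the partner of Myc (0.992), and for Minar2 they were Mrfap1 (0.999), Isca1 (0.994) and Max (0.992). For Tmem117 they were Nck1 (0.976), Wnt7a (0.973) and Bcl2 (0.969).

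The chromosomal surroundings were described by the nearest genes. Of 22 tested protein-coding genes (the 2 nearest on each side of each gene and 2 that overlap a member), 5 were called higher and 1 lower in circSlc45a4 knockdown cells, 27.3% against 27.1% of all genes tested. In mRNA knockdown cells 5 were called higher and 4 lower, 40.9% against 18.0%, and without scramble replicate 2 the calls numbered 4 in each comparison. With Xist as a covariate they numbered 3 in circSlc45a4 knockdown cells and 4 in mRNA knockdown cells. The medians of the 22 were 0.05 and -0.03. Of all genes tested, 14.1% were called higher in circSlc45a4 knockdown cells and 8.92% in mRNA knockdown cells. Among the 22, Baz2a, Erh and Nell2 were called higher in both, as were 4.95% of all genes tested. Baz2a, a chromatin protein near Ptges3, was higher in both, by 0.85 ± 0.09 in circSlc45a4 knockdown cells (adjusted p = 2.57e-05) and 0.52 ± 0.09 in mRNA knockdown cells (adjusted p = 0.00181). On the other side of Ptges3, Naca, a ribosome-associated chaperone subunit, had log2 fold changes of 0.08 and 0.18, neither past the threshold. Uvrag, an autophagy gene near Thap12, had 0.04 and -0.04. Twf1, an actin-binding gene near Tmem117, had -0.05 in circSlc45a4 knockdown cells and was called lower in mRNA knockdown cells (-0.44 ± 0.07, adjusted p = 0.00141).

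Both protein-coding genes that overlap a member on the other strand were higher in both knockdowns. Erh, a small nuclear protein, shares 459 exon bases with the 5' end of Slc39a9, 4.52% of the 10155 exon bases of Slc39a9, and the Slc39a9 promoter window lies inside the overlap. Erh read 183, 214 and 187 CPM in circSlc45a4 knockdown cells and 223, 210 and 194 CPM in mRNA knockdown cells, against 94.5, 84.7 and 98.7 CPM in scramble. Its log2 fold changes were 1.07 ± 0.09 (adjusted p = 3.74e-06 in edgeR) and 1.17 ± 0.09 (adjusted p = 4.95e-06). The strand setting of the counting is not given in the sources used here, so reads from the shared bases of Erh and Slc39a9 cannot be told apart. Nell2, a secreted neuronal glycoprotein, overlaps the 3' part of Tmem117 by 20869 bases of gene body with no shared exon base. Nell2 read 229 to 257 CPM in circSlc45a4 knockdown cells and 188 to 207 CPM in mRNA knockdown cells, against 106 to 110 CPM in scramble. Its log2 fold changes were 1.14 ± 0.08 (adjusted p = 8.31e-07) and 0.88 ± 0.08 (adjusted p = 1.01e-05).

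**Figure D3:**
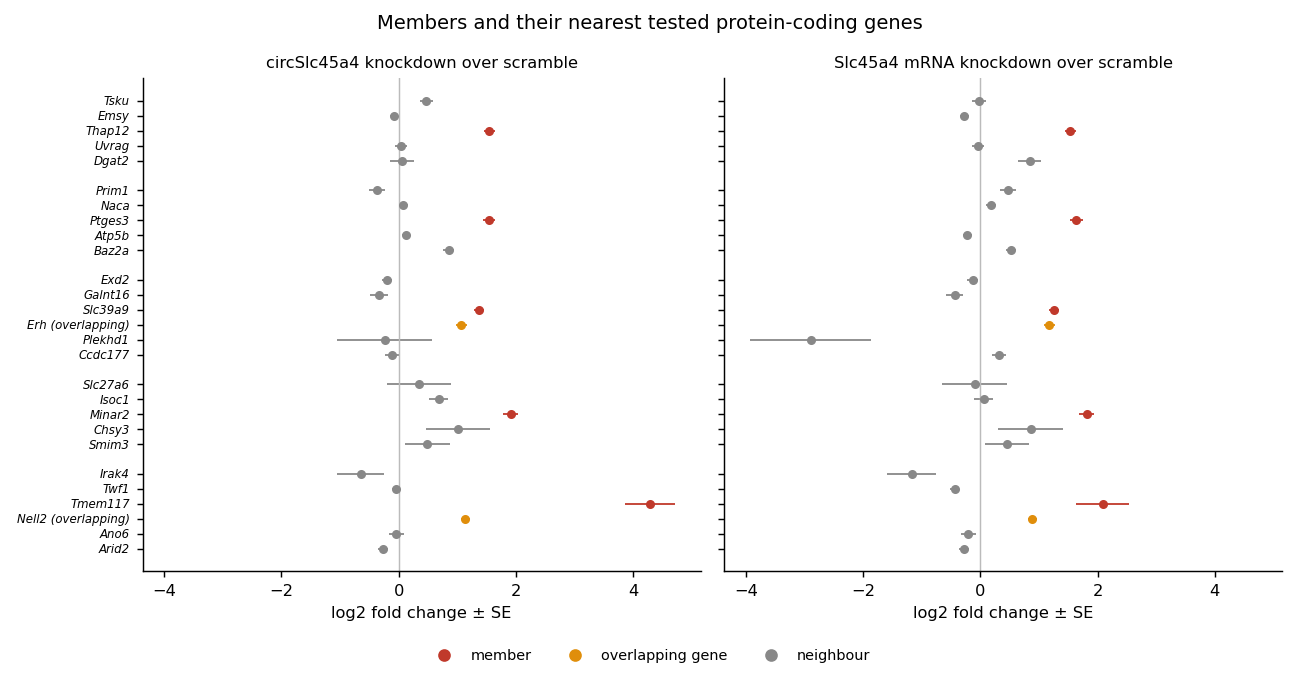
Log2 fold change over scramble (horizontal axis) with its SE for the 5 genes, the genes that overlap them and their nearest tested neighbours, in blocks by chromosomal order; the left panel shows circSlc45a4 knockdown cells and the right panel mRNA knockdown cells. The 5 genes sit above their neighbours in both panels, with Erh (1.07 and 1.17) and Nell2 (1.14 and 0.88) nearest to them.

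Families and pathways of the 5 genes were counted from lists of their relatives, without the 5 genes themselves. Of 95 listed genes, 81 were tested. In circSlc45a4 knockdown cells 18 were called higher and 4 lower (27.2%, against 27.1% of all genes), and in mRNA knockdown cells 11 were called higher and 4 lower (18.5%, against 18.0%). The medians were 0.12 and 0.05. With both directions together the shares are close to the background. By direction, more calls were higher than lower in each knockdown. Of all genes tested, 14.1% were called higher and 13.0% lower in circSlc45a4 knockdown cells, and 8.92% and 9.09% in mRNA knockdown cells. Between the knockdowns 12 were higher and 3 lower in circSlc45a4 knockdown cells (18.5%, against 26.1%). Without scramble replicate 3 mRNA knockdown cells had 7 calls in place of 15, and without scramble replicate 2 they had 9. With Xist as a covariate the calls numbered 7 in circSlc45a4 knockdown cells and 6 in mRNA knockdown cells.

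Among 7 tested THAP genes, 2 were called higher in circSlc45a4 knockdown cells and 0 in mRNA knockdown cells. These are 28.6% and 0.0%, against 27.1% and 18.0% of all genes tested. Thap2 was higher by 0.57 ± 0.13 (adjusted p = 0.00594 in edgeR), at 36.3 to 45.0 CPM in circSlc45a4 knockdown cells against 24.3 to 28.9 CPM in scramble. The call ended with Xist as a covariate (0.38, adjusted p = 0.361). Thap4 was higher by 0.38, a call that ended without replicate 1 or 2 of circSlc45a4 knockdown cells (0.37 and 0.33) or replicate 1 or 2 of scramble (0.27 and 0.40), with upper-quartile factors (0.32) and with Xist as a covariate (0.43). In mRNA knockdown cells an unadjusted p under 0.05 was reached by 2 of the 7 THAP genes in edgeR, and 0 of them passed DESeq2's adjusted threshold.

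Of 11 genes around PKR and the other eIF2alpha kinases, 4 were called higher and 1 lower in circSlc45a4 knockdown cells, and 2 higher in mRNA knockdown cells. The shares called were 45.5% and 18.2%, against 27.1% and 18.0% of all genes tested. Ddit3, the stress-induced transcription factor CHOP, was higher in circSlc45a4 knockdown cells by 0.53 ± 0.10 (adjusted p = 0.00198 in edgeR), and Ppp1r15a, the phosphatase subunit GADD34, was lower (-0.55 ± 0.12, adjusted p = 0.00502). Both calls ended with Xist as a covariate, at 0.43 for Ddit3 (adjusted p = 0.195) and -0.24 for Ppp1r15a (adjusted p = 0.53). Dnajc3, the inhibitor of PKR that human THAP12 was linked to, was higher in circSlc45a4 knockdown cells than in mRNA knockdown cells by 0.37 ± 0.09 (adjusted p = 0.0122). Against scramble, its call in circSlc45a4 knockdown cells ended in 8 of 17 alternatives. The higher calls there of Ppp1r15b and Eif2ak4 ended in 6 and 2 of 17. In mRNA knockdown cells the call of Eif2ak4 ended in 15 of 17. PKR itself, Eif2ak2, was called higher in mRNA knockdown cells by 1.13 (adjusted p = 0.026). That call ended without replicate 1 of that knockdown (0.68) and without scramble replicate 1 (0.90) or 3 (1.19). It also ended with a replicate block (1.02, adjusted p = 0.0635) and with Xist as a covariate (0.80, adjusted p = 0.408).

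Of 10 ZIP importers, 3 were called higher in circSlc45a4 knockdown cells and 2 in mRNA knockdown cells, with 0 lower, 30.0% and 20.0% against 27.1% and 18.0% of all genes tested. Slc39a10 was higher by 0.55 ± 0.08 (adjusted p = 3.05e-04 in edgeR) and 0.62 ± 0.08 (adjusted p = 2.42e-04), at 70.5 to 78.8 CPM in circSlc45a4 knockdown cells and 74.0 to 82.4 CPM in mRNA knockdown cells, against 47.9 to 53.6 CPM in scramble. Slc39a8 was higher in circSlc45a4 knockdown cells (1.04 ± 0.22, adjusted p = 0.00337), and its difference between the knockdowns was 1.02 ± 0.22 (adjusted p = 0.00388). All 3 ZIP calls in circSlc45a4 knockdown cells ended with Xist as a covariate, at 0.43 for Slc39a10 (adjusted p = 0.102), 0.72 for Slc39a8 (adjusted p = 0.301) and 0.60 for Slc39a1 (adjusted p = 0.0584). Of 7 ZnT exporters, 2 were called higher in each knockdown and 1 was called lower in mRNA knockdown cells, 28.6% and 42.9% of the 7. Slc30a5, which loads zinc into the secretory pathway, was higher by 0.72 ± 0.09 (adjusted p = 9.64e-05) in circSlc45a4 knockdown cells and by 0.74 ± 0.09 (adjusted p = 1.60e-04) in mRNA knockdown cells. Slc30a1, the exporter at the cell surface, was higher in circSlc45a4 knockdown cells by 1.00 ± 0.14 (adjusted p = 1.70e-04), and Mt3, a zinc-binding metallothionein of the brain, by 1.24 ± 0.17 (adjusted p = 1.38e-04).

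HSP90 and its co-chaperones, the partners of Ptges3, had 23 genes tested, with medians of 0.03 and 0.02. In circSlc45a4 knockdown cells 2 were higher and 1 lower, 13.0% against 27.1% of all genes tested. In mRNA knockdown cells 2 were higher and 2 lower, 17.4% against 18.0%. Dnajb1, an inducible HSP40, was higher by 0.56 ± 0.09 and 0.45 ± 0.09 (adjusted p = 6.69e-04 and 0.0047 in edgeR). Hspa8, the constitutive HSP70, stood at 2019 to 2305 CPM in circSlc45a4 knockdown cells and 2115 to 2202 CPM in mRNA knockdown cells, against 2591 to 2848 CPM in scramble, and it was lower in both (-0.35 ± 0.07 and -0.34 ± 0.07, adjusted p = 0.00343 and 0.00571). Nudcd3 was lower in mRNA knockdown cells (-0.53, adjusted p = 0.00209). With Xist as a covariate the calls ended for Hspa8 in both (-0.31 and -0.32, adjusted p = 0.201 and 0.173), and in mRNA knockdown cells for Dnajb1 (0.52, adjusted p = 0.0597) and Nudcd3 (-0.40, adjusted p = 0.163). Of 8 prostaglandin genes 1 was called higher in circSlc45a4 knockdown cells and 1 lower in mRNA knockdown cells. Each is 12.5% of the 8, against 27.1% and 18.0% of all genes tested. Ptges, the membrane-bound prostaglandin E synthase, was higher by 2.28 ± 0.52 (adjusted p = 0.00546), at 0.693 to 1.19 CPM in circSlc45a4 knockdown cells against 0.0956 to 0.324 CPM in scramble, a call that ended with Xist as a covariate (2.93, adjusted p = 0.0679).

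Minar1, the relative of Minar2, overlapped among the groups at 0.894 to 3.13 CPM in circSlc45a4 knockdown cells and 1.78 to 3.54 CPM in mRNA knockdown cells, against 1.39 to 3.40 CPM in scramble. Of 11 genes of Minar1 and the Notch receptors, ligands and nuclear partner, 2 were called higher and 2 lower in circSlc45a4 knockdown cells, and 2 higher in mRNA knockdown cells. That is 36.4% and 18.2%, against 27.1% and 18.0% of all genes tested. Notch2, the receptor bound by MINAR1 in human cells, was at 144 to 150 CPM in circSlc45a4 knockdown cells and 44.4 to 64.4 CPM in mRNA knockdown cells, against 31.7 to 40.9 CPM in scramble. It was higher by 2.02 ± 0.13 (adjusted p = 6.59e-07 in edgeR) and 0.54 ± 0.13 (adjusted p = 0.0101), with a difference between the knockdowns of 1.48 ± 0.13 (adjusted p = 6.53e-06). In mRNA knockdown cells its log2 fold change over scramble was 0.87 with Xist as a covariate (adjusted p = 0.0036). Rbpj, the DNA-binding partner of Notch, was higher by 1.03 ± 0.08 (adjusted p = 1.40e-06) and 1.07 ± 0.08 (adjusted p = 2.98e-06). The ligand genes Dll3 (-1.25 ± 0.17, adjusted p = 1.61e-04) and Jag1 (-1.36 ± 0.25, adjusted p = 0.00139) were lower in circSlc45a4 knockdown cells. The Jag1 call ended with Xist as a covariate (-1.56, adjusted p = 0.0558).

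**Figure D4:**
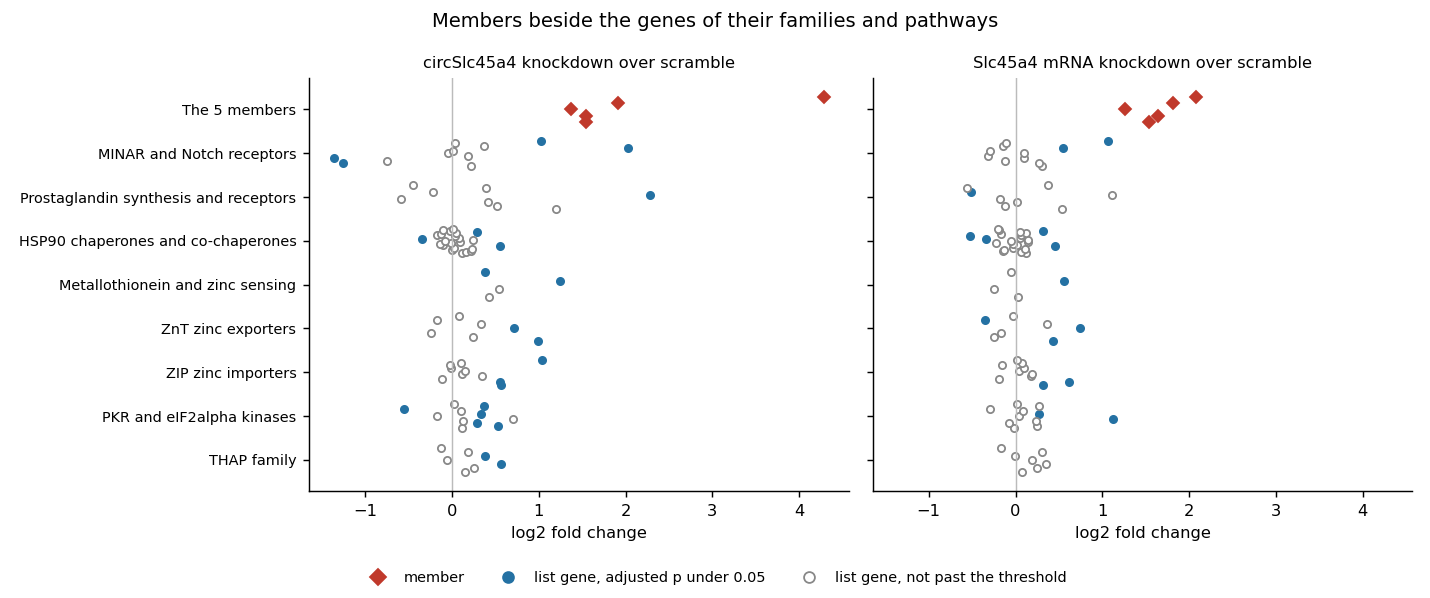
Log2 fold change over scramble (horizontal axis) of the 5 genes (diamonds) and of the tested genes in 8 lists of relatives (circles, filled where the adjusted p is under 0.05); the left panel shows circSlc45a4 knockdown cells and the right panel mRNA knockdown cells, and vertical scatter within a list only separates points. Most list genes are open circles, and Ptges, Notch2 and Mt3 are the called list genes farthest to the right in the left panel.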

How the data were processed

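PolyA RNA of sorted GFP+ cells was measured in 9 libraries, 3 in each of 3 groups taken from the sample titles. The authors deposited 1 table of raw counts per gene. bcl2fastq 2.17.1.14, STAR 2.4.2a, DESeq2 and mm10 are named per the submitters' processing notes; for the counting program, the annotation and the strand setting, no source used here gives a value. Versioned Ensembl IDs were joined to GENCODE M21 (the assembly of mm10) without their suffix, which gave a symbol to 53274 IDs and none to 105.

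Genes with few counts were removed with edgeR 4.0.16 (R 4.3.3; filterByExpr, minimum count 10, by group), and TMM factors scaled the libraries. The quasi-likelihood fit used all 9 libraries, a term for each group and 6 residual degrees of freedom; p-values were 2-sided, Benjamini-Hochberg adjusted over 17760 genes, with a threshold of 0.05. SE was taken as the log2 fold change over the root of the F statistic. The common dispersion gave a biological coefficient of variation of 13.9%. A floor of 3 counts equals 0.0671 to 0.143 CPM across libraries. No source used here names molecular identifiers, and reads without them are not separate molecules, so floors and counting intervals cover counting error only. The fit was tested on simulated data.

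The 5 genes, the lists and the tests were chosen with earlier results of these data known. Named genes are the 5, Slc45a4, Xist, Ddx3y, up to 4 genes per list by smallest p with Minar1 and Notch2, the 3 genes most correlated with each of the 5, the 6 others with the largest smaller fold change among the 743 genes described in the text, and the 2 nearest genes on each side. Eif2ak2, Ppp1r15b, Nell2, the single cell type markers and the pseudogenes of Ptges3 fall outside that rule and were named after their values were seen. Alternatives were RLE and upper-quartile factors, DESeq2 1.42.0, no filter, 1 CPM in 3 libraries, only the groups compared, a replicate block, Xist as a covariate and each library left out. One marker list fixed for the tissue is not reported here.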

Additional observations from a re-analysis of the deposited data

Results flagged for a closer look

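Tmem117 differed between the knockdowns, with a log2 difference of 2.21 (circSlc45a4 over mRNA knockdown cells, adjusted p = 6.61e-04 in edgeR's quasi-likelihood test). This is the effect in 1 knockdown against scramble set against the effect in the other, and it was tested directly. The level was 4.63 to 5.58 CPM in circSlc45a4 knockdown cells and 0.637 to 1.42 CPM in mRNA knockdown cells, higher in 3 of 3 libraries. Groups of 3 libraries are too small to single out a library.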

How the results depend on the processing

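Against scramble, all 5 genes stayed higher in both knockdowns under all 17 alternatives. They were chosen for that rise in these same libraries, so this largely follows from the choice and is no test. The log2 fold changes ran over 1.46 to 1.62 for Thap12, 1.41 to 1.62 for Ptges3, 1.32 to 1.50 for Slc39a9, 1.80 to 1.98 for Minar2 and 3.40 to 4.64 for Tmem117 in circSlc45a4 knockdown cells. In mRNA knockdown cells they ran over 1.46 to 1.61, 1.53 to 1.71, 1.22 to 1.35, 1.72 to 1.88 and 1.33 to 2.43 in the same order. With Xist as a covariate Slc39a9 moved to 1.50 in circSlc45a4 knockdown cells and 1.35 in mRNA knockdown cells. The genes called higher in both numbered 243 with that covariate and 547 to 881 when 1 library was left out, lowest without scramble replicate 2.

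Between the knockdowns, the sign for Thap12 turned with upper-quartile factors (-0.040), with Xist as a covariate (-0.005) and when 1 library was left out (range -0.027 to 0.080). That for Ptges3 turned without replicate 1 of mRNA knockdown cells (0.0032, range -0.14 to 0.0032). With upper-quartile factors 42.3% of calls were higher in circSlc45a4 knockdown cells against scramble, in place of 52.1%, and 42.1% in place of 52.8% between the knockdowns. Calls among relatives numbered 7 and 6 with Xist as a covariate in circSlc45a4 and mRNA knockdown cells, and 7 to 13 in mRNA knockdown cells with 1 library left out. Calls among neighbours numbered 3 and 4 with Xist as a covariate, 4 to 9 in mRNA knockdown cells and 5 to 9 between the knockdowns with 1 library left out. Of 76 calls of single relatives and neighbours, 33 were lost with Xist as a covariate, 0 with DESeq2, and 0 changed sign in any alternative. The cause was not tested. Xist largely follows group, so a call lost with it as a covariate does not show that sex made the difference.

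Replicate numbers are shared by the groups, and whether they pair the samples was not settled. Same-numbered deviations had r of 0.076 to 0.094 between the knockdowns and -0.129 to 0.028 against scramble. Between the knockdowns, differently numbered deviations had r of -0.048 to -0.032. Among the mRNA knockdown libraries each circSlc45a4 knockdown library correlated best with that of its own number, but over all libraries replicate 3 of circSlc45a4 knockdown cells correlated best with scramble replicate 1 (r = 0.12). With the replicate block, Tmem117 differed between the knockdowns by 2.22 (adjusted p = 0.00272 in edgeR), 779 genes were called higher in both, and 22, 11 and 16 relatives were called in circSlc45a4 knockdown cells, in mRNA knockdown cells and between them. Low counts limit Tmem117 in scramble, and 1 scrambled sequence limits every comparison with it.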
